A study of Mus musculus with 6 samples.

Results

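The 7 mammalian sirtuin genes, Sirt1 to Sirt7, were taken by symbol from a table of 27179 gene numbers, and all 7 were found and passed the filter on low counts. Sirtuins are enzymes that remove acetyl and other acyl groups from lysines of proteins and consume NAD in doing so, so that their activity follows the cell's NAD supply. Sirt1, Sirt6 and Sirt7 are mainly nuclear, Sirt2 is mainly cytoplasmic, and Sirt3, Sirt4 and Sirt5 are mitochondrial. In T cells, Sirt1 is known to restrain activation through its action on transcription factors. Butyrate, a short-chain fatty acid made by gut bacteria, inhibits many of the zinc-dependent histone deacetylases (HDACs) and not the sirtuins, whose chemistry is different.

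The study asked how butyrate changes transcripts of activated CD8+ T cells. All 6 libraries came from gBT-I mice, a strain with a T cell receptor transgene that makes its CD8+ T cells recognise glycoprotein B of herpes simplex virus. Total splenocytes of mice kept free of specific pathogens were stimulated with the peptide the receptor sees plus lipopolysaccharide. IL-2 was added between day 2 and day 5 and cells were collected on day 6. The 3 control libraries came from cultures without butyrate and the 3 butyrate libraries from cultures with butyrate from day 3, and the labels give no other difference. The sources used here give neither the dose nor a sort of the cells before RNA was taken.

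Library totals ran from 5383380 to 6244350 counts. Levels are in CPM, counts scaled to a common library size with TMM factors, and the limit set by an observed 0, 3 counts, was 0.487 to 0.556 CPM. All 10 defining T cell markers were tested, and their summed level was 6506 to 6809 CPM in control and 5725 to 6926 CPM in butyrate libraries. The median log2 change was -0.32. No member was higher, against 23.5% of all genes, and 2 of 10 were lower, against 22.5%. The count of lower members thus does not set these markers apart. The lower members were Cd3e and Lck, a chain and a kinase of T cell receptor signalling (log2 changes of -0.61 and -0.43, adjusted p of 0.000816 and 0.00605). Markers of other spleen cells were also present. The 15 macrophage and dendritic cell markers summed to 43.0 to 95.2 CPM in control and 151.3 to 159.8 CPM in butyrate libraries. Of 7 tested members, 4 were higher (57.1%, against 23.5% of all genes) and none lower. The higher ones were Itgam, Cd74, H2-Ab1 and H2-Aa, while Lyz2, Itgax and Cd68 were not called. Csf1r had 16 and 10 summed counts in control and butyrate libraries, Adgre1 2 and 2, and Fcgr1 3 and 3. Siglech was at 0 throughout. The 18 matched granulocyte, mast cell, erythroid and platelet markers summed to 5.38 to 23.0 and to 23.2 to 109 CPM, where Cxcr2, Siglecf and Epor passed the filter only through the butyrate libraries. The 13 B and plasma cell markers summed to 506 to 905 and to 210 to 582 CPM, with Pax5 at 0 throughout. The 9 NK cell markers summed to 604 to 921 and to 579 to 1021 CPM. Most of this sum was Nkg7 (means of 613.6 and 655 CPM), followed by Eomes (83.17 and 54.58 CPM). Ncr1 had 2 and 1 summed counts in control and butyrate libraries, Klra4 1 and 2, and Klra8 0 and 2. The sum is therefore no measure of the share of NK cells. Of 6 tested members, 3 were higher (Klrb1c, Klre1 and Tyrobp, against 23.5% of all genes) and 1 lower (Eomes, against 22.5%). The macrophage and dendritic cell sums and the granulocyte, mast cell, erythroid and platelet sums of the groups did not overlap, and the other 3 sums did. The part of these cells in the sirtuin results was not tested. In RNA from mixed cells, fewer cells of a type and less RNA per cell cannot be told apart.

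Butyrate split the family. Sirt1 fell to 46.1% of its control level, Sirt2 rose 1.496-fold and Sirt4 rose 1.88-fold, while Sirt3, Sirt5, Sirt6 and Sirt7 did not pass the test (edgeR quasi-likelihood test, Benjamini-Hochberg adjusted p under 0.05 over 11740 genes). Thus 3 of 7 members were called (42.9%), against 45.9% of all genes tested. By direction, 2 of 7 were higher, against 23.5% of all genes, and 1 of 7 was lower, against 22.5%. Control and butyrate libraries did not overlap for 4 of 7 members, Sirt1, Sirt2, Sirt4 and Sirt5, against 57.1% of all genes. These shares lie near those of the whole table, so the count of members called does not set the family apart. The median log2 change was 0.17 over the 7 members and 0.0034 over all genes tested. Of all calls, 51.1% were higher, and this share was 61.8% with upper quartile scaling.

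**Figure D1:**
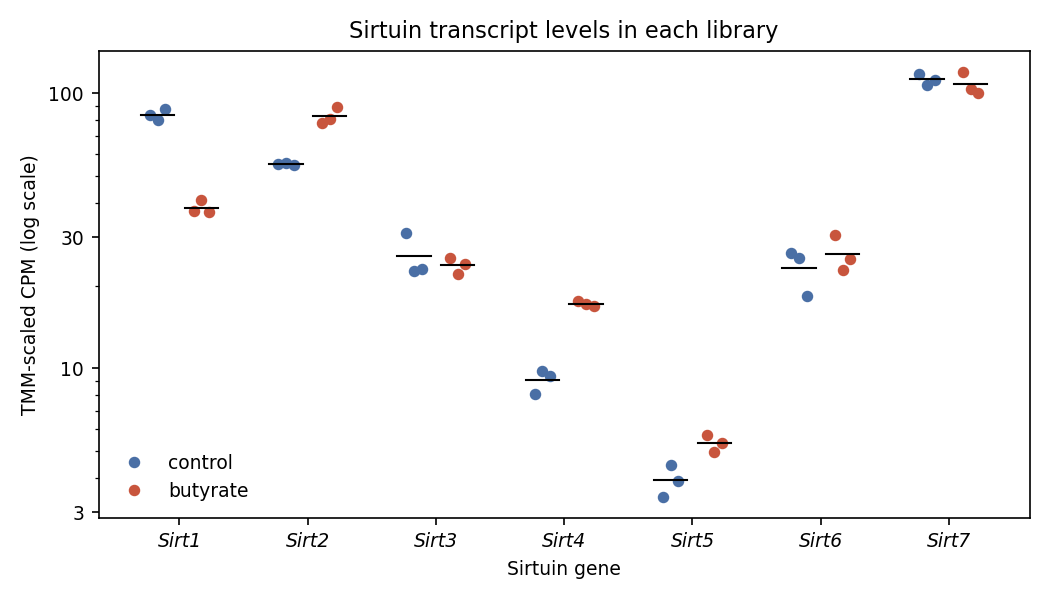
Points show TMM-scaled CPM of each sirtuin gene (log axis) in each of the 3 control and 3 butyrate libraries, and lines show group means. Sirt1 lies between 79.9 and 87.4 in control and between 37.1 and 40.9 in butyrate libraries, while the Sirt7 points of both groups overlap.

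Sirt1, a deacetylase of histones and of transcription factors such as p53 and FOXO proteins, lies on mouse chromosome 10 at 63319005 to 63339035 on the minus strand (GRCm38.p6). The bases in front of its RefSeq start are shown because Sirt1 is the only member called lower, and the corresponding bases of Sirt2, a member that rose, follow for contrast. Only the part of the 250 upstream bases outside GENCODE exons and outside other RefSeq genes is printed, 5′ to 3′ on the strand of the gene. In Sirt1 this is chr10:63339051-63339285, with capitals for the E-box CACGTG and the GC box GGGCGG or its reverse complement. In Sirt2 it is chr7:28766645-28766734, which lies between Nfkbib and the first exon of Sirt2, with capitals for ACTACA in reverse complement.
Sirt1: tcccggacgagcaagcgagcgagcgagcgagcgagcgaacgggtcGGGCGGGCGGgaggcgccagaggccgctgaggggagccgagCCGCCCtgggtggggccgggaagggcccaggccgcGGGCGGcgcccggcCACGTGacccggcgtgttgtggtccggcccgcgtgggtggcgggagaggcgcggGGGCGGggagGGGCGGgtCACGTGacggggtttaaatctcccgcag
Sirt2: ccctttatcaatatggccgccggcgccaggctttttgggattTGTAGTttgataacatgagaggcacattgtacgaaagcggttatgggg

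The whole 250-base windows differed in make-up. That of Sirt1 had a GC content of 79.2% and 39 CpG dinucleotides, against medians of 52.4% and 6 over 32817 RefSeq promoter windows of the same length. Searched on both strands, the Sirt1 window held 2 E-boxes CACGTG, 115 and 43 bases before the start, and 6 GC boxes GGGCGG, of which the 2 farthest from the start overlap. Of all windows, 6.02% held CACGTG and 32.7% held GGGCGG. The window of Sirt2 had 13 CpG dinucleotides, with no E-box and 1 GC box. It held ACTACA, the core of the ZNF143 and THAP11 element, 1 time on the opposite strand, 65 bases before the start. The window of Sirt4, the other member that rose, had a GC content of 53.2% and 14 CpG dinucleotides, with no E-box and no GC box. No window of Sirt3, Sirt5, Sirt6 or Sirt7, the members not called, held an E-box either. GC boxes numbered 3 and 0 in the windows of Sirt3, 1 in that of Sirt5, 1 and 0 in those of Sirt6 and 1 in that of Sirt7. The Sirt4 window held ACTACA 2 times, 97 bases before the start on the strand of the gene and 130 bases before it on the other. This window (chr5:115484298-115484547) lies inside the span of Sirt4 and overlaps Sirt4 exons. Its longest stretch outside exons and other genes is the 34 bases next to the start, which hold neither match. ACTACA was found in 8.92% of all windows and in no window of Sirt1, Sirt3, Sirt5, Sirt6 or Sirt7. It was chosen after the sequences had been seen. These matches describe letters and not binding.

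Among the nuclear members, only Sirt1 was called. Its counts were 463, 431 and 539 in the control and 202, 238 and 201 in the butyrate libraries. In TMM-scaled CPM these are 83.35, 79.94 and 87.44 against 37.36, 40.92 and 37.14. Every butyrate library lay below every control library, and the lowest control value was well above the highest butyrate value. The mean went from 83.57 ± 3.75 to 38.47 ± 2.12 CPM (SD, n = 3 each), a log2 change of -1.12 (SE 0.087, 95% interval -1.32 to -0.92, adjusted p = 4.85e-05). Of all genes tested, 87.7% had a smaller absolute log2 change. The call held in all 17 alternative analyses, with log2 changes between -1.17 and -1.04.

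Sirt6, a chromatin deacetylase that acts in DNA repair and on glycolytic genes, lies on chromosome 10 at 81621787 to 81627792. Its level was 26.28, 25.22 and 18.33 CPM in control and 30.51, 22.87 and 24.95 CPM in butyrate libraries. The groups overlapped, with control replicate 3 the lowest of the 6 libraries. The means of 23.3 ± 4.32 and 26.1 ± 3.95 CPM gave a log2 change of 0.17 (SE 0.17, adjusted p = 0.443), which was 0.023 without control replicate 3, 0.042 without butyrate replicate 1 and 0.27 without control replicate 1. The 95% interval from -0.21 to 0.55 allows a fall to 0.862 or a rise to 1.46 times the control level.

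Sirt7, a nucleolar and chromatin deacetylase tied to ribosomal RNA synthesis, lies on chromosome 11 at 120618371 to 120625014. It had the most counts of the family in each library, 656, 580 and 688 in control and 647, 602 and 544 in butyrate libraries. In CPM these are 118.1, 107.6 and 111.6 against 119.7, 103.5 and 100.5, and the groups overlapped. The log2 change was -0.06 (SE 0.092, adjusted p = 0.621), and its sign turned to 0.02 with upper quartile scaling. The 95% interval of -0.27 to 0.15 is the narrowest among the 4 members that were not called, and it bounds the level in butyrate at 0.831 to 1.11 times control.

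Sirt2, a deacetylase of alpha-tubulin and of proteins of mitosis, lies on chromosome 7 at 28766752 to 28788665 on the plus strand. Its counts were 307, 300 and 340 in control and 423, 470 and 484 in butyrate libraries. In CPM these are 55.27, 55.64 and 55.15 against 78.23, 80.81 and 89.44. All butyrate libraries were higher than all control libraries, and butyrate replicate 3 was the highest. The mean rose from 55.35 ± 0.256 to 82.8 ± 5.87 CPM, a log2 change of 0.58 (SE 0.085, 95% interval 0.39 to 0.77, adjusted p = 0.000738). The coefficient of variation of the control libraries, 0.462%, was below the 5.63% that counting error alone would give, so their closeness is not a measure of precision. The rise was called in 17 of 17 alternative analyses, at log2 changes of 0.52 to 0.66.

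Of the mitochondrial members, Sirt4 alone passed the test. Sirt4 acts as a lipoamidase and an ADP-ribosyltransferase and is known to restrain glutamate dehydrogenase and pyruvate dehydrogenase. The gene lies on chromosome 5 at 115478006 to 115490264. Its counts were 45, 53 and 58 in control and 95, 100 and 91 in butyrate libraries, or 8.10, 9.83 and 9.41 against 17.57, 17.19 and 16.82 CPM. The butyrate libraries lay close together, and the lowest of them was above the highest control. The mean rose from 9.11 ± 0.902 to 17.19 ± 0.376 CPM, a log2 change of 0.91 (SE 0.14, 95% interval 0.60 to 1.23, adjusted p = 0.000953). It was called in 17 of 17 alternative analyses, at 0.85 to 0.996 on the log2 scale, and 83.8% of genes tested had a smaller absolute change.

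Sirt3, the main mitochondrial deacetylase, lies on chromosome 7 at 140863663 to 140882309. Its level was 31.14, 22.63 and 23.04 CPM in control and 25.15, 22.01 and 24.02 CPM in butyrate libraries. The groups overlapped, and control replicate 1 stood above the other 5 libraries. The log2 change was -0.11 (SE 0.15, 95% interval -0.44 to 0.225, adjusted p = 0.571), and without control replicate 1 it was 0.06.

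Sirt5, which removes succinyl, malonyl and glutaryl groups, lies on chromosome 13 at 43365389 to 43395203 and had the fewest counts. These were 19, 24 and 24 in control and 31, 29 and 29 in butyrate libraries, or 3.42, 4.45 and 3.89 against 5.73, 4.99 and 5.36 CPM. The groups did not overlap, yet the gene was not called, with a log2 change of 0.45 (SE 0.22, 95% interval -0.05 to 0.95, adjusted p = 0.127). The interval runs from 0.965 to 1.93 times control, so at this depth a rise as large as that of Sirt4 and no change are both within it. Sirt5 was called in 0 of the 16 alternative analyses that could test it.

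**Figure D2:**
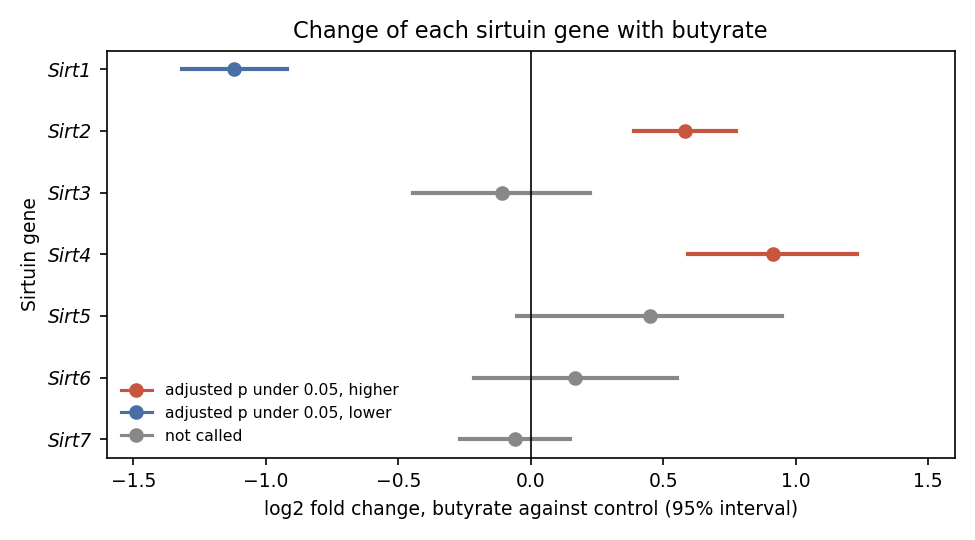
Points show the log2 fold change of each sirtuin gene with butyrate against control (edgeR, 3 libraries per group), lines show 95% intervals, and colours show the call. The intervals of Sirt1 (-1.32 to -0.92), Sirt2 (0.39 to 0.77) and Sirt4 (0.60 to 1.23) leave out 0, and those of the other members include it.

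Sirtuin counts as a whole stayed near the same total while their make-up shifted. The 7 genes together had 1809, 1646 and 1904 counts in control and 1699, 1700 and 1614 in butyrate libraries. The summed level was 313 ± 10.9 CPM in control and 302 ± 11.3 CPM in butyrate libraries, a difference of -11.7 CPM that turned to 5.79 CPM with upper quartile scaling. It was -5.50 CPM without control replicate 1, -7.04 CPM without butyrate replicate 2 and -18.0 CPM without butyrate replicate 1. The groups overlapped (exact permutation test, two-sided p = 0.3, where the smallest p for 3 against 3 is 0.1). Within the summed counts, Sirt1 went from 26.7% ± 1.43 to 12.8% ± 1.09, and Sirt2 from 17.7% ± 0.648 to 27.5% ± 2.55. Sirt4 went from 2.92% ± 0.382 to 5.70% ± 0.156 and Sirt5 from 1.26% ± 0.204 to 1.78% ± 0.0622. For these 4 genes the shares of the groups did not overlap (exact two-sided p = 0.1, the smallest possible). Sirt7 held 35.9% ± 0.555 and 35.7% ± 2.20, with overlapping shares. Scaled by exon length, the share of Sirt7 went from 43.5% ± 0.707 to 40.2% ± 2.37, without overlap (exact two-sided p = 0.1).

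**Figure D3:**
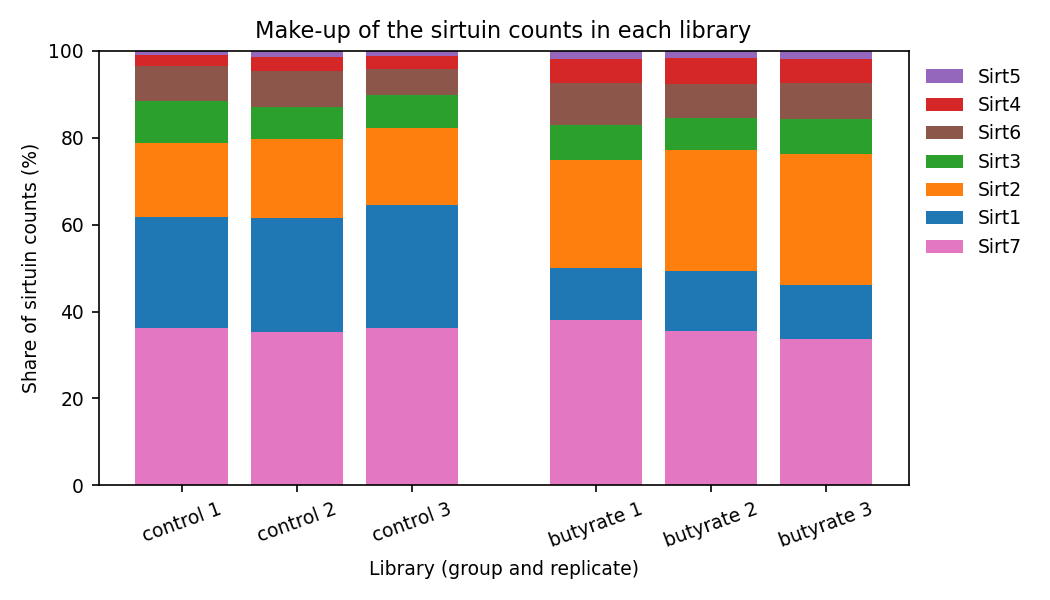
Stacked bars show the share of the summed sirtuin counts (%) held by each gene in each library. Sirt1 takes 26.7% on average in control and 12.8% in butyrate libraries, while Sirt2 goes from 17.7% to 27.5% and Sirt7 holds 35.9% and 35.7%.

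Ratios of raw counts within a library, which do not depend on scaling, reversed for Sirt1 and Sirt2. Sirt1 had 1.51, 1.44 and 1.585 counts per count of Sirt2 in control libraries and 0.478, 0.506 and 0.415 in butyrate libraries. In each control library Sirt1 was the more abundant in counts, and in each butyrate library Sirt2 was. Counts also follow length, and Sirt1 has 3908 bases of RefSeq exon against 1876 in Sirt2. Per kilobase of RefSeq exon, Sirt2 lay above Sirt1 in control (29.5 against 21.4) and in butyrate libraries (44.15 against 9.845). Which of the 2 is higher in control thus depends on the length used, while the change in the ratio does not. The log2 ratio went from 0.59 ± 0.071 to -1.105 ± 0.147, a difference of -1.70 (exact permutation test, two-sided p = 0.1, the smallest possible). Over all 21 pairs of members, the ratios of the groups did not overlap in 15. The share for pairs of other genes was not computed, while 57.1% of single genes did not overlap. The pairs reuse the same 7 genes, so they largely restate the changes of single members. Against each of the 6 other members, Sirt1 fell without overlap of the groups. The difference in log2 ratio ran from -1.02 against Sirt3 to -2.04 against Sirt4. Adjusted over the 21 pairs, the smallest p was 0.14. Sirt4 also stood higher against Sirt2 in butyrate, with a log2 ratio of Sirt2 to Sirt4 of 2.61 ± 0.143 in control and 2.27 ± 0.131 in butyrate libraries.

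Levels of different genes were compared in CPM per kilobase of RefSeq exon. In control libraries the order was Sirt7 at 65.1 ± 3.07, Sirt2 at 29.5 ± 0.136, Sirt1 at 21.4 ± 0.960, Sirt3 at 16.3 ± 3.06, Sirt6 at 10.03 ± 1.86, Sirt4 at 4.47 ± 0.442 and Sirt5 at 2.805 ± 0.369. Each gene lay above the next in every control library. In butyrate libraries Sirt7 stayed first at 62.5 ± 5.96 and Sirt2 was next at 44.15 ± 3.13. They were followed by Sirt3 at 15.1 ± 1.02, Sirt6 at 11.2 ± 1.70, Sirt1 at 9.845 ± 0.543, Sirt4 at 8.43 ± 0.1845 and Sirt5 at 3.83 ± 0.267. On this length Sirt1 moved from rank 3 to rank 5. Sirt6 and Sirt1 overlapped in butyrate libraries and are not ordered by these data, while the other neighbours were in the same order in each library. The order was the same with the longest RefSeq transcript. With the exons of all GENCODE transcripts, an alternative added after the annotation had been seen, Sirt1 (15.7) came before Sirt2 (10.99) in control and after it (7.22 against 16.45) in butyrate libraries, and Sirt6 came before Sirt3 in both groups. On that length Sirt1 stayed above Sirt3 in butyrate libraries (7.22 against 3.97). Sirt4 lay below Sirt3 in control (3.80 against 4.29) and above it in butyrate libraries (7.17 against 3.97).

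**Figure D4:**
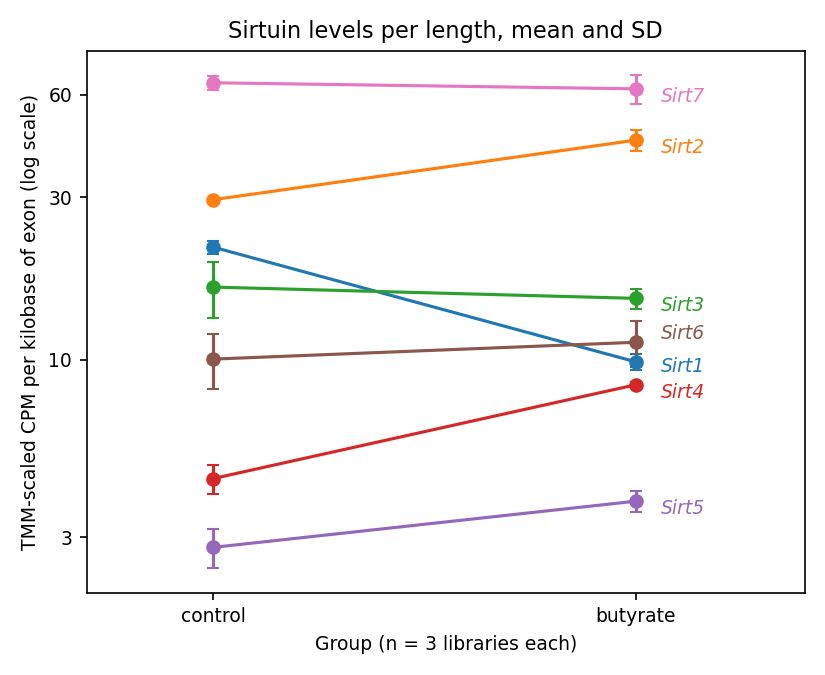
Points show the mean TMM-scaled CPM per kilobase of RefSeq exon (log axis) of each sirtuin gene in control and butyrate libraries, and bars show the SD (n = 3). The line of Sirt1 falls from 21.4 to 9.845 across those of Sirt3 and Sirt6, while Sirt7 stays highest.

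The sirtuin loci are crowded, and the deposited counts carry no stated strand setting. Within Sirt2, on the opposite strand, lies the long noncoding RNA gene Gm19897 (chromosome 7, 28774899 to 28781514), all of whose 6616 bases are inside the span of Sirt2. Its counts were 57, 47 and 60 in control and 21, 18 and 17 in butyrate libraries, a log2 change of -1.501 (SE 0.21, adjusted p = 0.000548). It fell while Sirt2 rose. Without strand, reads of the pair cannot be told apart where their exons overlap, so the values of both are uncertain to that extent. The starts of Sirt2 and Nfkbib, an inhibitor of NF-kB, lie head to head 108 bases apart. Nfkbib rose from 39.2 ± 1.65 to 48.6 ± 4.25 CPM (log2 change 0.31, adjusted p = 0.0304), a call that was lost without control replicate 2 or 3 or butyrate replicate 3 (adjusted p of 0.0942, 0.0799 and 0.0937) and with DESeq2 (0.108). Rinl, 209 bases beyond the other end of Sirt2 and a regulator of Rab5-type GTPases, fell from 316 ± 21.05 to 255 ± 12.8 CPM (log2 change -0.31, adjusted p = 0.0166), with the call lost without control replicate 1 or 3 (0.073 and 0.0545).

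Around Sirt1, the closest gene in the direction of its 3′ end is Herc4, a ubiquitin ligase gene 1124 bases away. Herc4 fell from 47.7 ± 2.33 to 36.5 ± 6.29 CPM (log2 change -0.39, adjusted p = 0.0378). That call was lost without any one of control replicates 1, 2 and 3 or butyrate replicates 1 and 2, at adjusted p of 0.0601 to 0.109. On the other side, 43408 bases from the start of Sirt1, Dnajc12, a heat shock protein 40 family gene, rose from 3.67 ± 1.16 to 8.64 ± 0.671 CPM (log2 change 1.23, adjusted p = 0.00458). Around Sirt4, the nearest gene analysed here is Pla2g1b, a secreted phospholipase gene 3284 bases away that was at 0 in all 6 libraries. The overlapping noncoding genes Gm42007, Gm24265 and Gm24407 and the neighbouring pseudogene Gm13836 have no row in the deposited counts.

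The genes most like the called members over the 6 libraries were found by Pearson correlation of log2 CPM. The 9064 genes compared averaged 10 CPM or more, with predicted and unnamed genes left out. With 2 groups that lie apart, such a value mostly repeats the group difference, and 903 genes exceeded 0.95 for Sirt1, 616 for Sirt2 and 550 for Sirt4. Closest to Sirt1 were Dpy19l1 (0.9994), a C-mannosyltransferase family gene that fell from 171.0 ± 3.375 to 123 ± 3.54 CPM, Zfp414 (0.9993), a zinc finger gene, and Bcl10 (0.999), a signalling adaptor of the antigen receptor to NF-kB. Bcl10 fell from 85.0 ± 2.76 to 56.9 ± 2.08 CPM. Closest to Sirt2 were Ddit4 (0.9989), an inhibitor of mTORC1 signalling, Mtmr3 (0.9985), a phosphoinositide phosphatase, and Pparg (0.9984), a nuclear receptor of lipid metabolism. Pparg rose from 10.5 ± 0.513 to 43.3 ± 13.6 CPM and Ddit4 from 325 ± 8.36 to 545 ± 50.9 CPM. Closest to Sirt4 were Slc25a44 (0.9988), a mitochondrial carrier of branched-chain amino acids, Pfdn6 (0.9987), a prefoldin subunit, and Nrn1 (0.9987), a small membrane-anchored protein. Nrn1 rose from 5.20 ± 0.939 to 16.1 ± 1.04 CPM. The rise of Slc25a44 (log2 change 0.22, adjusted p = 0.0336) was lost when any one of the 6 libraries was left out, at adjusted p of 0.061 to 0.0835.

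Sirtuins need NAD. Of 26 listed genes of NAD synthesis, salvage and transport, 15 were tested, 3 were higher, 3 lower and 9 not called, with a median log2 change of 0.096. Among all genes, 23.5% were higher and 22.5% lower. Nampt, the rate-limiting enzyme of NAD salvage from nicotinamide, fell from 72.4 ± 8.35 to 51.65 ± 6.475 CPM (log2 change -0.49, SE 0.12, adjusted p = 0.0111). Nmrk1, the kinase that starts the salvage of nicotinamide riboside, rose from 13.3 ± 0.334 to 31.0 ± 3.495 CPM (1.22, SE 0.13, adjusted p = 0.00015). The mitochondrial NAD kinase gene Nadk2 fell from 25.96 ± 2.10 to 16.4 ± 1.19 CPM. Slc12a8, reported as a carrier of nicotinamide mononucleotide, was at 0, 0.742 and 0.649 CPM in control and 3.51, 3.61 and 3.33 CPM in butyrate libraries, and passed the filter only through the latter. Nadk, the cytosolic NAD kinase, rose from 154 ± 8.245 to 192 ± 21.1 CPM (adjusted p = 0.0261), a call lost without control replicate 1 or 2 or butyrate replicate 2 or 3 (0.0647 to 0.0849). Slc25a51, the carrier of NAD into mitochondria, fell from 153 ± 7.87 to 125 ± 10.4 CPM (adjusted p = 0.0259), a call lost without control replicate 2 or 3 or butyrate replicate 2 (0.0793 to 0.0865).

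Of 12 other NAD-consuming enzymes, 10 were tested, with 2 higher, 2 lower and a median of -0.072, so that 4 of 10 were called, against 45.9% of all genes. Parp1, the main poly(ADP-ribose) polymerase of DNA damage, was the most abundant riser, from 139.7 ± 11.7 to 229.5 ± 34.3 CPM (log2 change 0.72, adjusted p = 0.00139). Bst1, an NAD glycohydrolase of the cell surface, rose from 3.58 ± 1.26 to 8.18 ± 2.12 CPM (adjusted p = 0.0134). Tnks, a tankyrase, fell from 54.25 ± 1.04 to 38.9 ± 3.78 CPM (adjusted p = 0.00401). Parp3 fell from 38.6 ± 4.11 to 30.6 ± 1.65 CPM (adjusted p = 0.0348), a call lost without control replicate 1 or 2 or butyrate replicate 2 or 3 (0.0701 to 0.125).

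Of 20 known regulators of Sirt1, all tested, 3 were higher, 5 lower and 12 not called, with a median of -0.055, so that 8 of 20 were called, against 45.9% of all genes. Dyrk3, a kinase that phosphorylates Sirt1, rose from 22.7 ± 2.87 to 52.65 ± 5.93 CPM (log2 change 1.21, adjusted p = 0.000167), while its relative Dyrk1a fell from 131 ± 7.60 to 85.45 ± 8.52 CPM (-0.62, adjusted p = 0.00101). E2f1, an activator of Sirt1 transcription, rose from 53.5 ± 3.565 to 83.1 ± 4.77 CPM (0.63, adjusted p = 0.00062). Usp22, a deubiquitinase that stabilizes Sirt1 protein, rose from 90.35 ± 5.70 to 122 ± 2.27 CPM (adjusted p = 0.0024). Ctbp1, a corepressor that senses NADH, fell from 316 ± 18.3 to 208 ± 23.6 CPM (adjusted p = 0.00152), and Bcl6, a transcriptional repressor, from 6.65 ± 0.471 to 1.64 ± 1.31 CPM (adjusted p = 0.00434).

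Of 31 substrates and partners of the nuclear sirtuins Sirt1 and Sirt6, 30 were tested, with 6 of 30 higher (against 23.5% of all genes), 12 of 30 lower (against 22.5%) and a median of -0.18. Myc, a growth transcription factor whose family binds the E-box, rose from 279 ± 14.6 to 860.1 ± 97.9 CPM (log2 change 1.63, adjusted p = 2.9e-05). Hif1a, the transcription factor of the hypoxia response, rose from 266.5 ± 33.7 to 431 ± 48.7 CPM, and E2f1 is on this list too. Foxo4 fell from 62.6 ± 5.49 to 27.7 ± 5.62 CPM (-1.18, adjusted p = 0.000323) and Rbbp8, which starts the resection of DNA breaks, from 74.1 ± 3.955 to 48.5 ± 1.42 CPM. Acss2, the acetyl-CoA synthetase that Sirt1 activates, fell from 31.0 ± 1.48 to 15.95 ± 2.465 CPM (-0.96, adjusted p = 0.000614). Its mitochondrial counterpart Acss1, activated by Sirt3, fell from 58.3 ± 10.3 to 22.9 ± 2.70 CPM (-1.35, adjusted p = 0.000195).

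Of 17 listed Sirt2 substrates, all tested, 4 were higher (23.5%, as among all genes), 9 lower (52.9%, against 22.5% of all genes) and 4 not called, with a median of -0.31. The list was drawn up from cytoplasmic and mitotic proteins. Cdc20, a coactivator of the anaphase-promoting complex, fell from 196 ± 15.2 to 63.4 ± 3.955 CPM (log2 change -1.63, adjusted p = 2.52e-05), and Fzr1 from 145 ± 10.3 to 72.3 ± 3.62 CPM (-1.01, adjusted p = 7.03e-05). Tuba1a, an alpha-tubulin gene, fell from 328 ± 16.95 to 169.8 ± 5.46 CPM (-0.95, adjusted p = 6.23e-05). Near-identical alpha-tubulin genes can share reads, which makes its value uncertain. Nfkb1, the p105 precursor of NF-kB, rose from 347 ± 32.0 to 579 ± 24.7 CPM (0.74, adjusted p = 0.000369), and Cdk9, the kinase of transcription elongation, from 127 ± 8.19 to 192 ± 8.71 CPM (0.60, adjusted p = 0.000583). Pard3, a polarity protein, was at 0, 0.1855 and 0 CPM in control and at 2.96, 4.99 and 3.70 CPM in butyrate libraries, and passed the filter only through the latter.

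Of 39 listed mitochondrial substrates of Sirt3, Sirt4 and Sirt5, 35 were tested, with 10 higher (28.6%, against 23.5% of all genes), 3 lower (8.57%, against 22.5%) and 22 not called, and a median of 0.031. Gls2, a glutaminase, rose from 4.14 ± 0.472 to 11.5 ± 2.76 CPM (log2 change 1.46, adjusted p = 0.00121). Pdp1, the phosphatase that activates pyruvate dehydrogenase, rose from 29.45 ± 1.64 to 45.4 ± 1.997 CPM (0.62, adjusted p = 0.000927), and Ppif, cyclophilin D of the permeability pore, from 64.6 ± 3.13 to 89.1 ± 6.47 CPM (0.46, adjusted p = 0.00283). Pdha1, a subunit of pyruvate dehydrogenase, fell from 205 ± 13.1 to 162 ± 10.9 CPM (adjusted p = 0.0129), a call lost without control replicate 3 (0.0628). Acadm, a fatty acid dehydrogenase, fell from 30.9 ± 2.28 to 23.5 ± 2.425 CPM (adjusted p = 0.0227), a call lost without control replicate 1 or 3 or butyrate replicate 1 or 2 (0.0507 to 0.0889). The urea cycle genes Cps1 and Otc and the urate oxidase gene Uox were at 0 in all 6 libraries. For Sirt4, 2 known targets were added after their values were seen. Glud1, glutamate dehydrogenase, was at 257.5 ± 4.72 and 240.2 ± 0.698 CPM (adjusted p = 0.279), and Mlycd, malonyl-CoA decarboxylase, rose from 29.3 ± 1.51 to 40.1 ± 4.27 CPM (adjusted p = 0.00985).

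Of 24 nucleolar and nuclear partners of Sirt7, 23 were tested, with 4 higher, 3 lower and a median of 0.091, so that 30.4% were called against 45.9% of all genes. Elk4, the ETS factor that brings Sirt7 to promoters, fell from 104 ± 5.17 to 42.9 ± 10.1 CPM (log2 change -1.27, adjusted p = 0.000284). Ubtf, a transcription factor of RNA polymerase I, fell from 193 ± 19.99 to 147.5 ± 7.74 CPM, and Baz2a, a silencer of ribosomal DNA, from 207 ± 12.9 to 163 ± 11.9 CPM. Polr1b, a subunit of RNA polymerase I, rose from 57.7 ± 3.82 to 82.2 ± 5.80 CPM, and the nucleolar helicase Ddx21 from 417 ± 28.9 to 613 ± 29.0 CPM. Nop56, a protein of small nucleolar RNPs, rose from 182 ± 14.7 to 241 ± 29.0 CPM (adjusted p = 0.0146), a call lost without control replicate 3 or butyrate replicate 2 (0.0561 and 0.0524). Of 20 regulators of mitochondrial biogenesis, protein folding and oxidant defence, 19 were tested, with 5 higher, 3 lower (42.1% called) and a median of 0.055. Nfe2l2, the oxidant-response factor, fell from 85.8 ± 5.54 to 51.2 ± 1.61 CPM, and catalase (Cat) and Nrf1 fell too, by 0.63 and 0.50 on the log2 scale. The chaperonin genes Hspd1 and Hspe1 rose, by log2 changes of 0.34 and 0.53. Esrra, a nuclear receptor of mitochondrial biogenesis, rose by 0.33 (adjusted p = 0.0367), a call lost without any one of control replicates 1, 2 and 3 or butyrate replicates 1 and 3 (0.0536 to 0.105).

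The zinc-dependent HDACs are the other family of lysine deacetylases, and butyrate inhibits many but not all of them. Of 11 genes, 10 were tested, with 2 higher, 3 lower and 5 not called, and a median of -0.062. The 7 sirtuins gave 2 higher, 1 lower and 4 not called. Of all genes tested, 23.5% were higher and 22.5% lower, so these counts do not set the HDACs apart. Hdac1 rose from 80.1 ± 4.01 to 112 ± 2.345 CPM (log2 change 0.49, adjusted p = 0.00115). Hdac11 was at 0.540, 0.1855 and 0.649 CPM in control and at 6.10, 4.30 and 2.96 CPM in butyrate libraries, and passed the filter only through the latter. Hdac5 fell by 0.68 and Hdac7 by 0.54 on the log2 scale, at adjusted p of 0.00947 and 0.0111. Hdac10 fell from 22.2 ± 6.53 to 12.7 ± 2.87 CPM (adjusted p = 0.0223), a call lost without control replicate 1 or butyrate replicate 2 or 3 (0.0614 to 0.0715). The lists share some members.

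**Figure D5:**
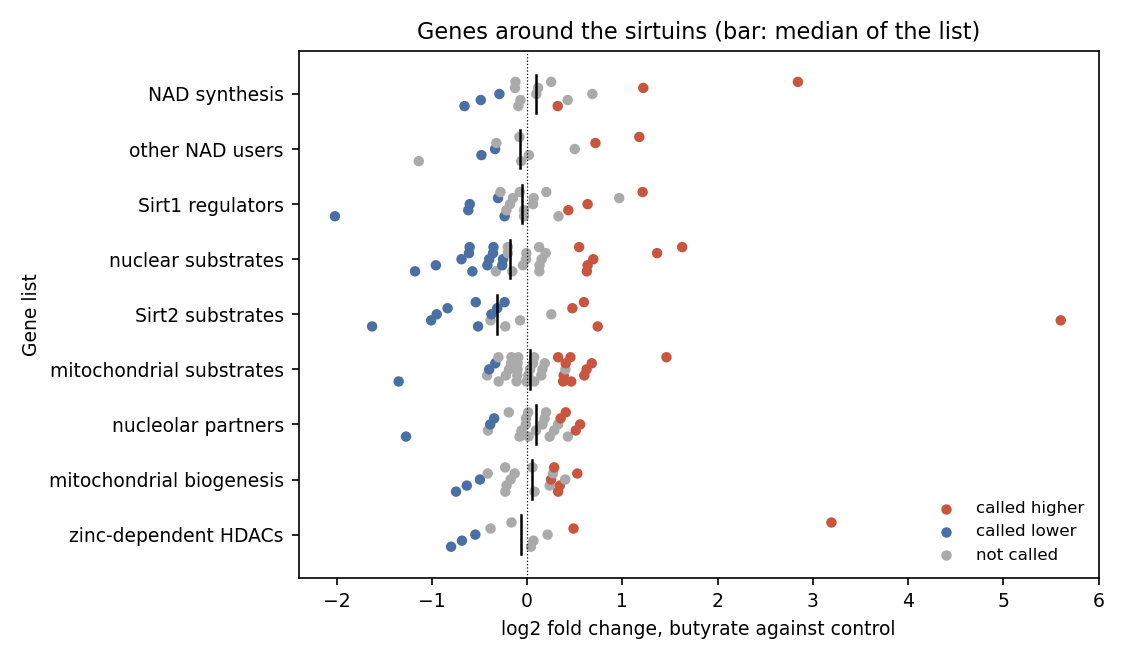
Points show the log2 fold change with butyrate of each tested gene of 9 lists around the sirtuins, coloured by call, and bars show list medians. Medians lie between -0.31 (Sirt2 substrates) and 0.096 (NAD synthesis), and the points farthest to the right, Pard3, Hdac11 and Slc12a8, are fitted values of genes with control means of at most 0.464 CPM.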

How the data were processed

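RNA sequencing of 3 control and 3 butyrate libraries was analysed from 1 table of raw counts per gene, which the authors deposited. Tools listed in the submitters' processing notes are TopHat, featureCounts, Subread, edgeR, CASAVA and Picard, with build mm10, while versions, roles and strand setting are not given. Of 27179 gene numbers, 25275 were named from a RefSeq table of GRCm38.p6. The 1904 others held 0.965% to 1.20% of counts and were kept in the tests.

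Counts were tested with edgeR 4.0.16 (R 4.3.3): TMM, filterByExpr, glmQLFit and glmQLFTest, with Benjamini-Hochberg adjustment over 11740 genes and calls at adjusted p under 0.05. The SE was taken as the absolute log2 change over the root of the F statistic. Intervals are at 95%. The script was tested on simulated data. Totals of 5383380 to 6244350 counts limit the precision of low genes, and limits from counts cover counting error only. Libraries of a group differed beyond counting noise (chi-square over its degrees of freedom, 5.685 to 11.3). Whether replicates are separate mice or cultures is not in the labels, and the p-values reflect only the scatter among these samples, possibly technical.

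Deviations from the group mean correlated at 0.197 to 0.362 for same-numbered libraries and at -0.301 to -0.075 for other pairs. Centring within each group pushes the latter below 0 when the former are positive. The numbers may thus pair the libraries, while the main test and the permutation tests took them as unpaired. This possible pairing comes from the data, since the labels tie the numbers to no mouse, culture or day.

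The members and lists were chosen with earlier results of these data known. Named were all sirtuins, up to 3 called genes per direction and list with the smallest p, the nearest and overlapping genes of called sirtuins and the 3 genes most like each. Promoters are RefSeq's, on GRCm38.p6, and lengths are exons of GENCODE transcripts matched to RefSeq. Alternatives covered scaling, filters, robust edgeR, glmTreat, DESeq2 1.42.0, limma voom 3.58.1, the replicate block and each library left out.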

Additional observations from a re-analysis of the deposited data

How the results depend on the processing

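The counts of 2 sirtuins higher and 1 lower were the same in all 17 alternatives, and no sirtuin gained or lost a call. With the replicate block, 2 sirtuins were again higher and 1 lower, all genes gave 3220 higher and 3095 lower calls against 2756 and 2637, and the block changed no call of a sirtuin or of another named gene. Signs turned for Sirt3 when 1 library was left out (log2 change from -0.1848 to 0.06279, the latter without control replicate 1), for Sirt7 with upper quartile scaling (0.02228) and for the summed level with that scaling (5.79 CPM). None of these had passed a test, and upper quartile scaling moved the median of all genes from 0.0034 to 0.085. Against a fold of 1.2 (glmTreat), lower calls over all genes fell to 1562, since that test asks for more than a change. Leaving out 1 library gave 2369 to 2633 higher and 2118 to 2552 lower calls. Of 64 other named genes, 16 lost their call in at least 1 alternative. All 16 lost it against that fold, which alone ended the calls of Nampt, Baz2a, Hspd1 and Ubtf. DESeq2 ended those of Acadm, Esrra, Herc4, Nfkbib, Parp3 and Slc25a44, upper quartile scaling those of Acadm, Herc4, Parp3, Rinl and Slc25a51, no filter those of Esrra, Nfkbib and Slc25a44, and a filter at 5 CPM that of Herc4. Depth limits Sirt5, with 19 to 31 counts per library.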
